A study of Mus musculus with 15 samples.

Results

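The promoters of 43 genes of DNA replication and S phase were examined in cultured lens cells and in newborn lens. The genes were taken from a list of replication and E2F-regulated genes, chosen by name and not by a measured value. All 43 were found among the 22342 protein-coding genes of the annotation used. For each gene the strongest called region that overlapped the 2 kb on either side of any of its transcription starts (mouse genome build mm9) was taken.

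The series holds 15 samples, of which 9 ChIP-seq libraries gave the lists of regions used here, and 4 RNA-seq and 2 input libraries were not analysed here. αTN4, a mouse lens epithelial cell line transformed with the SV40 T antigen, carried either a lentiviral control shRNA, with ChIP-seq of Pax6, RNA polymerase II (Pol2), H3K4me1, H3K4me2 and H3K4me3, or a Pax6 shRNA (Pax6 KD), with ChIP-seq of the 3 methylation marks. H3K4me2 was also profiled in whole lens of newborn mice at postnatal day 1. The shRNA cells were stable lines made by infection and selection, in which the knockdown lowers Pax6 and does not remove it, and which of the study's Pax6 shRNAs the ChIP libraries carried is given in its methods and not in the labels.

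A cell copies its genome once per division. Origins are licensed in G1, when Cdc6 and Cdt1 load the Mcm helicase onto DNA, and are fired in S phase, when cyclin-dependent kinases recruit Cdc45 and the GINS complex. Most of these genes are targets of E2F transcription factors, which are held back by the retinoblastoma protein, and the T antigen is known to bind that protein. Trimethylated H3K4 marks the starts of active genes, dimethylated H3K4 lies around them, and monomethylated H3K4 is typical of enhancers and of the outer flanks of promoters.

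Each condition had 1 library for each antibody, so no replicate error can be given and no test between conditions was made. The depth of the Pol2, H3K4me2 and H3K4me3 libraries is unknown, because the lists hold no read counts. The H3K4me1 islands held 3289553 reads in control and 1849269 in Pax6 KD. The number of H3K4me1 islands was 38007 in control and 18417 in Pax6 KD, and their median fold enrichment was 3.51 and 2.61. Strength is therefore given as a percentile, the rank of a region's fold enrichment within its own list, in which the weakest region is near 0 and the strongest near 100. One label field names the antibodies of the Pax6 and Pol2 libraries the other way round, and the libraries were assigned by their titles. Of 13 lens marker genes found, all 13 carried H3K4me2 at the promoter in lens and 7 in control αTN4. The defining fibre cell genes Mip, Lim2, Bfsp1, Bfsp2 and Crybb2 and the epithelial factor Foxe3 had no region of any mark in αTN4. Of 4 markers each of vessel, immune and retinal cells, H3K4me2 was found in lens at 3, 0 and 2, and in control αTN4 at 2, 1 and 0.

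The promoter sequences of the 43 genes held E2F words far more often than those of other genes. The words searched on both strands were TTTCCCGC, TTTCGCGC, TTTGCCGC and TTTGGCGC, 4 forms of the E2F recognition element, from 250 bp before to 50 bp after the most 5′ start. At least 1 word was present in 13 of the 43 promoters (30.2%), against 2.78% of all 22342 protein-coding promoters and 4.61% of the 10356 promoters that had both Pol2 and H3K4me3 in control αTN4 (called active promoters below). The word TTTGGCGC was found in 10 of the 43, against 0.676% of all promoters. In the promoter table of RefSeq (GRCm38.p6), which matched 34 of the 43 genes by symbol, words were present in 13 (38.2%), against 2.32% of that table. The genes were listed as replication and E2F-regulated genes, so these shares describe the list and are not independent of how it was drawn up. A match of letters does not show that a factor binds there, and E2F binding was not measured.

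By functional group, the words were found in 6 of the 9 origin licensing genes (Cdc6, Cdt1, Mcm3, Mcm4, Mcm5 and Mcm6), in Gins1 and Gins3, in Rfc3, in Pole and Pole2, and in E2f1 and E2f2. No word was found in these 300 bp of the 3 cyclins, the 3 subunits of replication protein A, the 4 genes of nucleotide supply or the 2 lagging strand genes. From 500 bp before to 200 bp after the start, 21 of the 43 promoters held a word, so absence depends on the window. It also depends on the start used, and at Lig1 the strongest Pol2 peak had its summit 1121 bp downstream of it. Of the 22 matches in the 300 bp, 14 began within 50 bp of the start, and 7 promoters held 2 or more words. Neither count was made over all promoters, so no background can be given for them. In Mcm5, Mcm6 and Gins1, 2 words overlapped each other on opposite strands, and none of the 22 overlapped a CCAAT box, a GC box or a cell cycle homology region.

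Of the 7 promoters with 2 or more words, 5 are shown as examples of helicase, GINS and E2F genes, and those of Mcm4 and Rfc3 are not. They were read from mm9 at chr1:20810310-20810609 (Mcm3, minus strand), chr8:77633177-77633476 (Mcm5, plus strand), chr1:130256184-130256483 (Mcm6, minus strand), chr2:150735080-150735379 (Gins1, plus strand) and chr2:154395579-154395878 (E2f1, minus strand). Each runs 5′ to 3′ along the strand of the gene, with E2F words of either strand in capitals and the start 50 bases from the end.
Mcm3: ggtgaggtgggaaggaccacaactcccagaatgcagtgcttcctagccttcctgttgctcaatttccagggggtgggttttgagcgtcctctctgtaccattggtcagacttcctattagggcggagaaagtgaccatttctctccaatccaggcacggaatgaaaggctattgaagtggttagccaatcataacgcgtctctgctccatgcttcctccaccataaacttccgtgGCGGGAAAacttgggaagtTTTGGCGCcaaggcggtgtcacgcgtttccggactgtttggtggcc
Mcm5: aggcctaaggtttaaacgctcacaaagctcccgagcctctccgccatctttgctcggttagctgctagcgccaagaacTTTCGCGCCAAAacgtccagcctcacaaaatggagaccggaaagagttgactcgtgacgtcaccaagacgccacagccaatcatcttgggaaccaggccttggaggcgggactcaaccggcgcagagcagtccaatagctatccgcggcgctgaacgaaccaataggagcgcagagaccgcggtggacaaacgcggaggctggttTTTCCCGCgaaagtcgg
Mcm6: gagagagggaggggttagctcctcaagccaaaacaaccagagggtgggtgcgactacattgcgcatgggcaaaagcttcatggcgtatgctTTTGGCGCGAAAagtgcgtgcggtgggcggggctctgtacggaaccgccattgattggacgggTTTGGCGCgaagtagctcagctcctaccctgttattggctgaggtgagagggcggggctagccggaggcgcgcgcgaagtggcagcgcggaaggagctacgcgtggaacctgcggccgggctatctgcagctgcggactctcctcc
Gins1: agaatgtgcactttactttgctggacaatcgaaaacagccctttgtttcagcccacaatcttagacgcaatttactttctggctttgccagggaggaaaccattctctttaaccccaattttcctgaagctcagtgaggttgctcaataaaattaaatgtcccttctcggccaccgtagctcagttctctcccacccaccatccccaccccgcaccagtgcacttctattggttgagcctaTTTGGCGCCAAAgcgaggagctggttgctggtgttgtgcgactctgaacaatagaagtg
E2f1: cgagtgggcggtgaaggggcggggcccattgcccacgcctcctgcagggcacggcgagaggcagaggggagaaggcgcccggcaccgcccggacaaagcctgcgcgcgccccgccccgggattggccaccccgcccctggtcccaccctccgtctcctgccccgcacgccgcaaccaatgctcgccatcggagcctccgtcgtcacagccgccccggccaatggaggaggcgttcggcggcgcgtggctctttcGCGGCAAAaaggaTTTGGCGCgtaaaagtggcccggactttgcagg
In Mcm3 one word lay just before the start and the other just after it, on opposite strands. In Gins1 the overlapping pair of words lay at the start, while in Mcm5 and Mcm6 the pair lay farther upstream and a single word followed. Both words of E2f1, itself an E2F gene, lay within the first bases of the transcript.

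Other promoter words differed less between the genes and the background. CCAAT, the recognition element of the factor NF-Y, was found in 26 of the 43 (60.5%), against 37.9% of all promoters and 39.6% of active promoters. It occurred 2 or more times in 15 of the 43, a count that was not made over all promoters. GGGCGG, the GC box bound by Sp1, was found in 29 (67.4%), against 44.0% of all promoters and 66.0% of active promoters. TTTGAA, the cell cycle homology region of late cell cycle genes, was found in 3 (6.98%), against 16.2% of all promoters and 11.9% of active promoters. From 500 bp before to 200 bp after the start it was found in 32.6%, against 35.8% and 29.7%, so the lower share depends on the window. The median number of CpG dinucleotides in the 300 bp was 22 (range 6 to 43), close to the 21 of active promoters and above the 12 of all promoters.

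**Figure D1:**
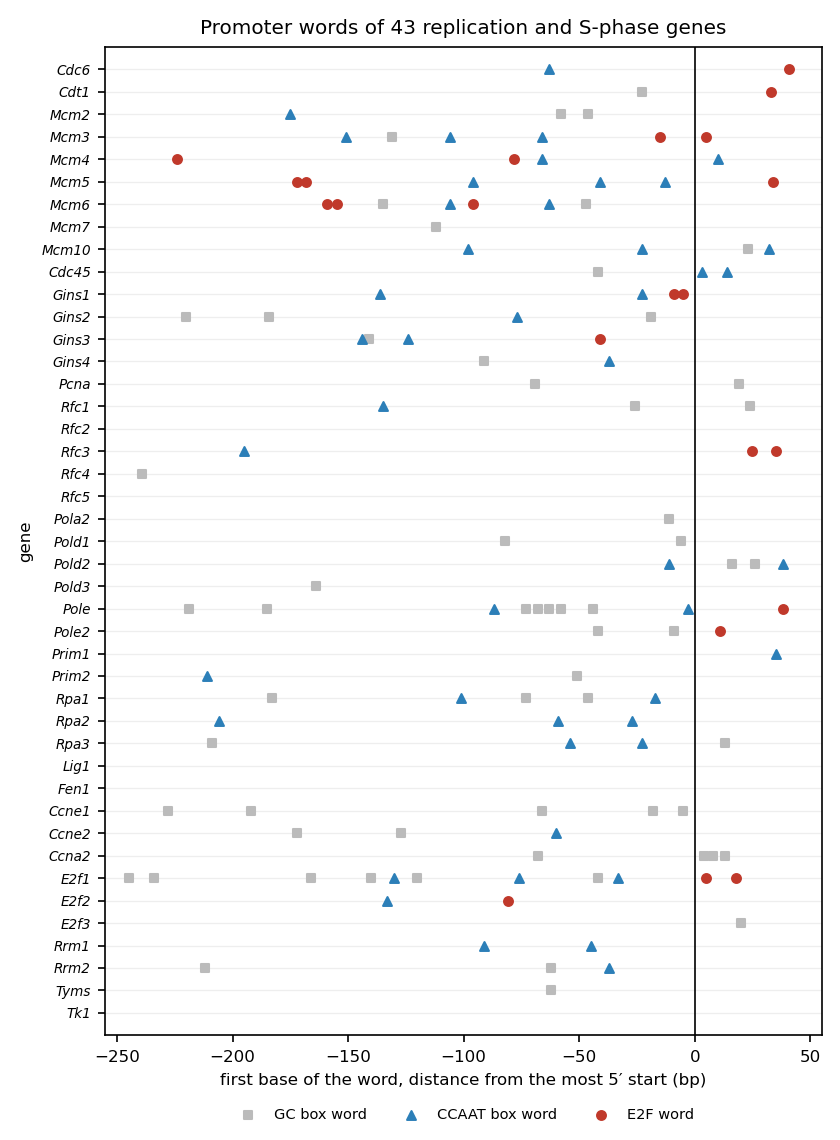
Position of E2F, CCAAT and GC box words in the promoters of the 43 genes, one gene per row grouped by function. The horizontal axis gives the distance in bp of the first base of each word from the most 5′ start. E2F words lay in 13 promoters, 6 of them of origin licensing genes, and 14 of the 22 began within 50 bp of the start.

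All 43 genes carried Pol2, H3K4me3 and H3K4me2 at their promoters in every library in which these were measured. Regions of Pol2 were present at 48.0% of all protein-coding genes, of H3K4me3 at 49.1% in control and 47.8% in Pax6 KD, and of H3K4me2 at 58.2% in control, 57.1% in Pax6 KD and 66.8% in lens. Among active promoters H3K4me2 was present at 99.8% in control, 99.9% in Pax6 KD and 99.7% in lens, and H3K4me3 at 98.4% in Pax6 KD. The full set of marks was therefore what nearly every active promoter had. H3K4me1 was the exception. It was present at 26 of the 43 (60.5%) in control, against 36.0% of all genes and 59.1% of active promoters, and at 9 (20.9%) in Pax6 KD, against 16.8% and 26.5%.

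The strength of the marks was also close to that of active promoters. The median percentile of the 43 genes was 68.4 for Pol2 against 71.4 at active promoters, 69.8 against 68.4 for H3K4me3, and 91.1 against 90.4 for H3K4me2 in control. In Pax6 KD it was 65.8 against 67.4 for H3K4me3 and 91.8 against 90.1 for H3K4me2, and in lens 87.7 against 89.1 for H3K4me2. The genes thus ranked near the middle of active promoters for each of these marks, while their own range was wide, from 18.4 to 96.3 for Pol2 and from 22.2 to 99.6 for H3K4me3 in control.

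**Figure D2:**
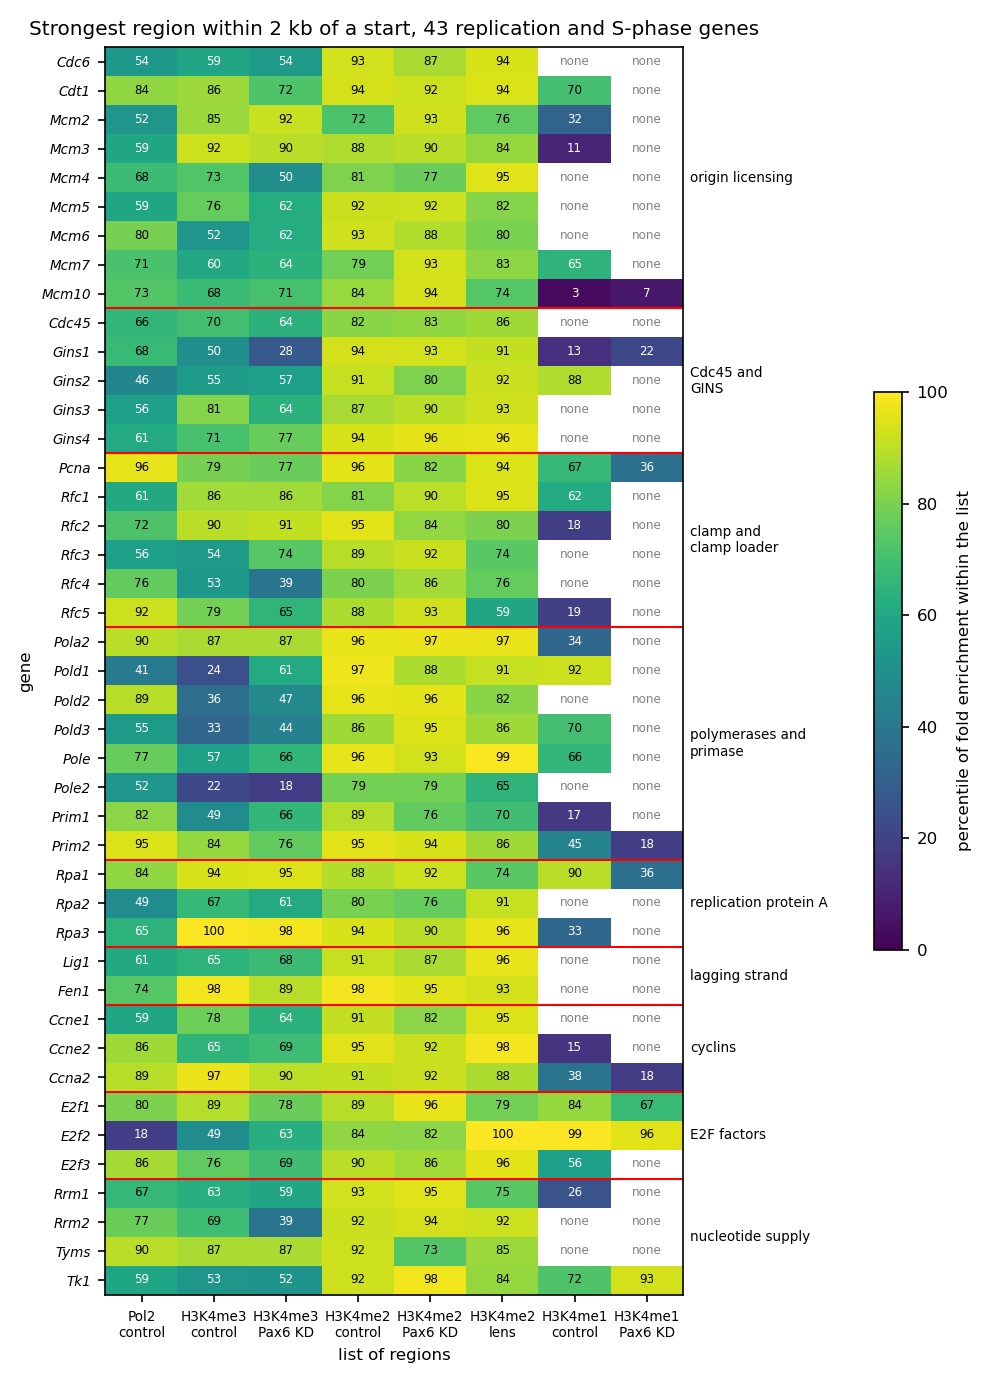
Percentile of fold enrichment of the strongest region within 2 kb of a start, for each of the 43 genes (rows, by function) in each of 8 lists of regions (columns), with "none" where no region was called. Pol2, H3K4me3 and H3K4me2 were present in every row, and H3K4me1 in 26 rows in control and in 9 in Pax6 KD.

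The median summits of the marks lay in order along the promoter. The strongest Pol2 peak had its summit at a median of 68 bp downstream of the most 5′ start, the strongest H3K4me3 peak at 294 bp and the strongest H3K4me2 peak at 727 bp in control, against 60, 349 and 689 bp at active promoters. A Pol2 peak covered the start itself in 90.7% of the 43 genes and in 83.5% of active promoters. H3K4me3 covered the base 400 bp downstream of the start in 97.7%, against 86.6%, and the base 400 bp upstream in 46.5%, against 40.7%. Single genes departed from this order, such as Lig1, with summits at 1121 bp for Pol2, 933 bp for H3K4me3 and 749 bp for H3K4me2. The trimethyl mark was thus called mostly on the side of the gene body.

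H3K4me2 in αTN4 lay on both sides of the start with a gap between. In control it covered the base 800 bp downstream in all 43 genes and the base 400 bp upstream in 86.0%, but the start itself in 30.2%, against 44.0% of active promoters. In Pax6 KD the start was covered in 27.9%. In lens H3K4me2 was called across the start in 83.7% of the genes, against 72.3% of active promoters, and the strongest peak had its summit at a median of 343 bp. The gap was therefore absent from most genes in the lens list. H3K4me1 lay farther out, covering the base 2000 bp downstream in 46.5% and the start itself in 6.98% of the genes in control.

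**Figure D3:**
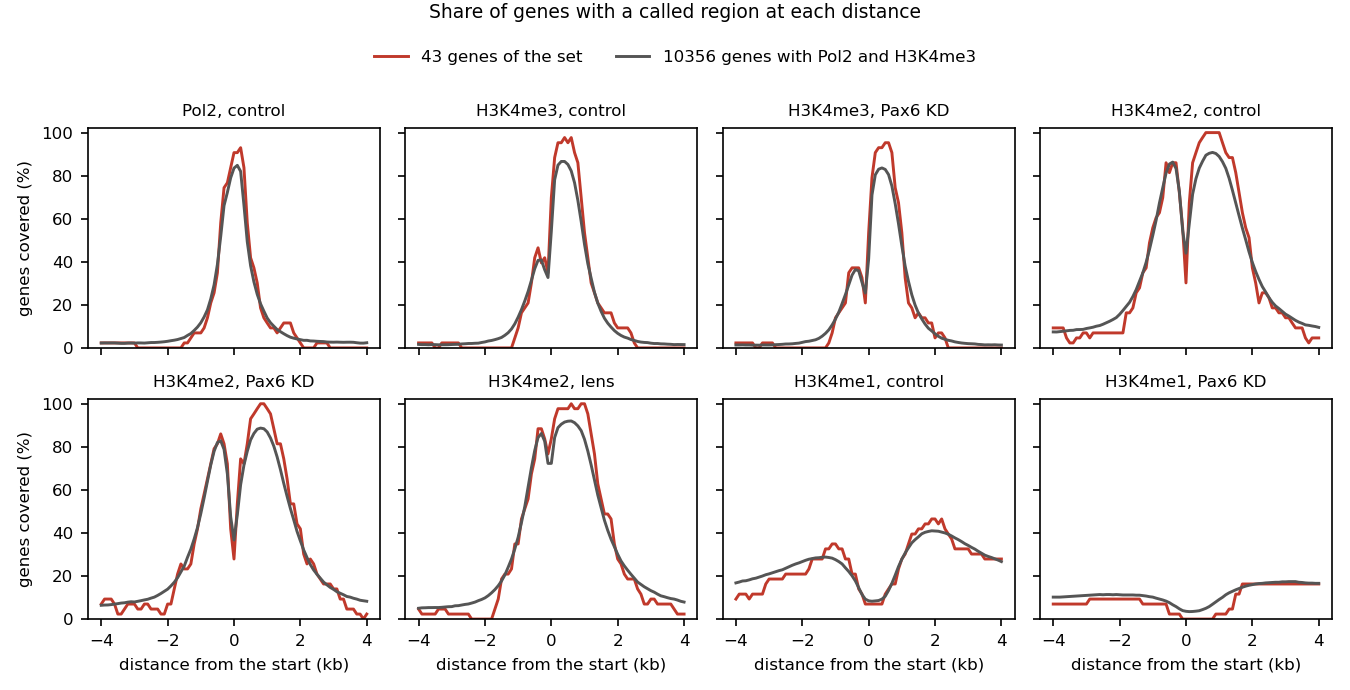
Percent of genes with a called region at each distance from the most 5′ start (kb, positive in the direction of transcription), for the 43 genes (red) and for the 10356 active promoters (grey), 1 panel per list. Pol2 was centred on the start, H3K4me3 lay downstream, H3K4me2 of αTN4 left a gap at the start that lens H3K4me2 did not, and H3K4me1 lay on the outer flanks.

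Origin licensing genes (Cdc6, Cdt1, the helicase subunits Mcm2 to Mcm7 and the firing factor Mcm10) had Pol2 at percentiles from 52.0 to 83.5, with Mcm2 lowest and Cdt1 highest. Their H3K4me3 ranged from 52.1 at Mcm6 to 92.2 at Mcm3. Mcm2 had the lowest H3K4me2 of all 43 genes in control (71.8), followed by Mcm7 (78.6). Their H3K4me3 was at 84.9 for Mcm2, above the median of the set (69.8), and at 60.2 for Mcm7, below it. At Mcm7 the strongest peaks of the 2 marks did not overlap in position. H3K4me1 was present at 5 of the 9 in control, and Mcm10 (2.86) and Mcm3 (10.6) were the lowest of all members in that list.

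Cdc45 and the 4 GINS genes, which complete the active helicase, had a narrow range of Pol2, from 45.9 at Gins2 to 67.9 at Gins1. Gins2 was the third lowest of all 43. Their H3K4me3 ranged from 49.8 at Gins1 to 81.3 at Gins3, and their H3K4me2 in control from 82.3 at Cdc45 to 93.8 at Gins4.

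Pcna, the sliding clamp that holds polymerases on DNA, had the strongest Pol2 peak of the set. The peak at chr2:132078169-132079772 had a 30.7-fold enrichment, at percentile 96.3. Its H3K4me3 was at percentile 79.3 in control and 77.2 in Pax6 KD, and its H3K4me2 at 95.8 in control, 82.2 in Pax6 KD and 94.2 in lens. High Pol2 at Pcna thus went with H3K4me3 that was not extreme. The clamp loader subunits Rfc1 to Rfc5 had Pol2 between 56.5 and 92.5, where Rfc5 was the third highest of all members.

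The polymerase and primase genes included the weakest H3K4me3 of the set. The 8 genes had a median percentile of 79.6 for Pol2 and 95.8 for H3K4me2 in control. Their median for H3K4me3 in control was 42.5, the lowest of the 9 groups. In Pax6 KD it was 63.4, against 65.8 for the set, and nucleotide supply was lower (55.4). In control the lowest H3K4me3 of the whole set was found at Pole2 (22.2), Pold1 (24.5) and Pold3 (32.9), followed by Pold2 (36.3). There, 3 subunits of DNA polymerase delta and 1 of epsilon stood together at the bottom. Pold1, Pole2 and Pold3 also had the lowest Pol2 of the group (41.2, 52.5 and 54.6), whereas Prim2 and Pola2, with the highest, had H3K4me3 at 84.3 and 87.4. The 2 did not always go together, since Pold2 had Pol2 at 89.2, and Prim1 had Pol2 at 82.5 with H3K4me3 at 48.7. Pold1, the catalytic subunit of delta, had an H3K4me3 peak of 9.15-fold at chr7:51803236-51804152 and an H3K4me2 peak of 23.5-fold at chr7:51802586-51804180. The latter was at percentile 97.4, the second highest of the set. Pola2, the second subunit of DNA polymerase alpha, was also among the 3 highest for H3K4me2 (96.5), with H3K4me3 that was not low. Prim2, the large primase subunit, had the second highest Pol2 (94.6).

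The strongest H3K4me3 peaks were those of a subunit of replication protein A, which coats single-stranded DNA, and of a lagging strand enzyme. Rpa3, the smallest subunit, had a 52.2-fold H3K4me3 peak at percentile 99.6, and Fen1, the flap endonuclease that trims Okazaki fragments, a 46.0-fold peak at 98.4. Rpa1 was at 94.0 and Rpa2 at 66.8, and Lig1, the ligase that joins Okazaki fragments, was at 64.6, below the median of the set. Fen1 also had the highest H3K4me2 in control, at percentile 98.3. Both Rpa3 and Fen1 share their promoter with a gene on the opposite strand, so their marks cannot be assigned to 1 of the 2 genes.

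Shared promoters were common in the set. Another protein-coding start lay within 2 kb of a start in 10 of the 43 (23.3%), against 14.5% of all protein-coding genes, and in all 10 it lay on the opposite strand. The pairs were Mcm4 and Prkdc, Mcm7 and Ap4m1, Cdc45 and Ufd1l, Pole and Pxmp2, Prim2 and 1700001G17Rik, Rpa1 and Smyd4, Rpa3 and Gm16039, Lig1 and 6330408A02Rik, Fen1 and 1810006K21Rik, and Tk1 and Afmid. Distances between the starts ran from 54 bp at Fen1 to 466 bp at Mcm4. Without these genes, Pol2, H3K4me3 and H3K4me2 were present at all 33 remaining promoters.

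The S-phase cyclins Ccne1, Ccne2 and Ccna2 had Pol2 at 58.6, 85.9 and 89.4. Ccna2, the cyclin of S phase and of entry into mitosis, had the third highest H3K4me3 of the set (97.0). Of the genes of nucleotide supply, Rrm1 and Rrm2 encode the ribonucleotide reductase, Tyms makes thymidylate and Tk1 salvages thymidine. Their Pol2 ranged from 59.2 at Tk1 to 89.8 at Tyms, and their H3K4me2 in control was narrow, from 91.9 to 93.2.

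The E2F genes had the widest range of Pol2 of the 9 groups. E2f1 and E2f3 had Pol2 at 80.4 and 86.4, whereas E2f2 had the weakest Pol2 peak of all 43 genes, a 4.89-fold peak at chr4:135728322-135728794 at percentile 18.4. Pold1 (41.2) was next above it. E2f2 had H3K4me3 at 48.7 in control and 63.2 in Pax6 KD, and H3K4me2 at 83.5 in control and 82.5 in Pax6 KD. In lens its H3K4me2 was the strongest of the set, at 34.8-fold and percentile 99.6. It also had the strongest H3K4me1 island of the set in both conditions, of 9.96-fold at chr4:135731201-135737600 in control (percentile 99.4) and of 4.90-fold at chr4:135730001-135737800 in Pax6 KD (95.7). These islands lay within 2 kb of a downstream start of E2f2, and the control island did not reach the window around the most 5′ start.

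The comparison of control and Pax6 KD asks whether the marks at these promoters differ when Pax6 is lowered. No gene of the set was without H3K4me3 or H3K4me2 in Pax6 KD, where 3.18% of all genes with H3K4me3 in control and 2.67% of those with H3K4me2 had no region called. The median change in percentile, Pax6 KD minus control, was -1.51 for H3K4me3 (-1.68 over all genes with both) and -0.33 for H3K4me2 (-0.99). Ranked by the width of the region in place of its fold, the median change of H3K4me2 was 2.41, so its sign depends on the measure. A change of 10 percentile points or more, a rule of size and not a test, was found for H3K4me3 upward in 7 genes (16.3%), against 12.4% of all genes, and downward in 10 (23.3%), against 21.4%. For H3K4me2 it was upward in 2 (4.65%), against 8.29%, and downward in 5 (11.6%), against 11.3%. These shares were near those of all genes. For H3K4me2 the upward share is limited by the top of the scale, since the median percentile in control was already 91.1, against 88.3 for all genes with both.

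The largest upward change of H3K4me3 was at Pold1, from 24.5 in control to 61.0 in Pax6 KD. Rfc3 went from 54.3 to 74.2 and Prim1 from 48.7 to 66.3. Pold2 and Pold3 were among the other 4. By rank, 3 of the 4 genes lowest in control were thus higher in Pax6 KD. The lowest, Pole2, was at 17.8 and remained lowest. Genes taken as the lowest of 1 list have the most room to rise in another, and how far this alone gives such a pattern was not tested. The fold of the peak was clearly higher only at Pold1, at 9.15 in control and 15.5 in Pax6 KD. It was 12.8 and 12.5 at Pold2, 11.7 and 11.8 at Pold3 and 18.9 and 18.7 at Rfc3. At E2f2 and Mcm6, also past the rule upward, the fold was lower in Pax6 KD. Apart from Pold1, these upward changes are therefore ones of rank. The largest downward change in percentile was at Rrm2, from 68.8 to 39.0, followed by Mcm4 from 72.7 to 49.5 and Gins1 from 49.8 to 28.3. Pole2, Gins1 and, tied at 39.0, Rfc4 and Rrm2 were then the lowest, and Rpa3 (98.1), Rpa1 (94.7) and Mcm2 (91.5) the 3 highest. With 1 library each, these differences between single genes cannot be told from the spread between libraries.

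The percentile of H3K4me2 was higher by 10 points or more in Pax6 KD at 2 helicase genes. As the 2 lowest in control, they had the most room to rise. Mcm2 went from 71.8 to 92.8 and Mcm7 from 78.6 to 93.3. The percentile was lower at Tyms, from 92.4 to 73.1, and at Pcna, from 95.8 to 82.2. At Mcm7 and Pcna the strongest peaks of the 2 lists did not overlap in position, so their values compare different parts of the promoter, as was the case at 6 of the 43 genes for H3K4me2 and at 0 for H3K4me3. H3K4me2 was also lower at Prim1, from 88.8 to 75.9, at Rfc2, from 95.4 to 83.7, and at Gins2, from 91.3 to 80.5. Tyms, Prim1 and Rpa2 (76.4) were the 3 lowest in Pax6 KD, and Tk1 (97.8), Pola2 (97.2) and E2f1 (96.5) the 3 highest. Prim1 was the only gene past the 10 points in both marks, with a higher percentile of H3K4me3 and a lower one of H3K4me2. The fold of its H3K4me3 peak was 17.0 in control and 16.7 in Pax6 KD, so the higher percentile is one of rank, in a list whose median fold was 17.4 in control and 13.1 in Pax6 KD.

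The regions were also shorter in Pax6 KD. H3K4me3 covered fewer bases of the 4001 bp around the most 5′ start in 34 of the 43 genes (79.1%), against 65.1% of all genes with both. It covered fewer in 24 of 48 other replication genes and in 19 of 28 mitotic genes, lists described below. H3K4me2 covered fewer in 34 of the 43 (79.1%), against 76.1% of all genes with both. The median number of bases covered by H3K4me3 was 1444 in control and 1279 in Pax6 KD, and by H3K4me2 2559 and 2431. The largest loss of H3K4me3 cover among the genes named above was at Mcm5, from 1760 to 1037 bp.

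**Figure D4:**
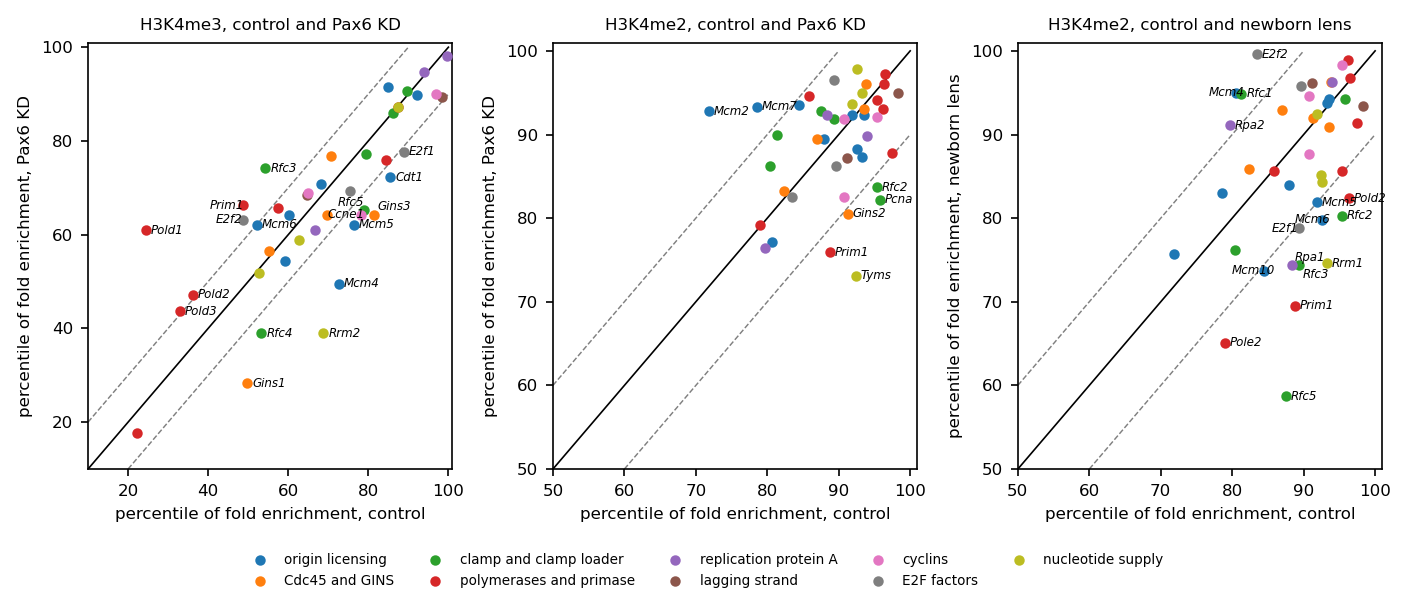
Percentile of fold enrichment in control αTN4 (horizontal axis) against Pax6 KD αTN4 or newborn lens (vertical axis), one point per gene, coloured by function. The solid line marks equal percentiles and the dashed lines a difference of 10 points, past which genes are named. Most of the 43 genes lay between the dashed lines for H3K4me2 in Pax6 KD, and more lay below the band in lens, where Rfc5 was lowest.

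H3K4me1 was called at far fewer of the promoters in Pax6 KD. Of the 26 genes with an island in control, 17 had none in Pax6 KD (65.4%), against 56.5% of all genes with an island in control, and 0 of the 17 genes without one gained it, against 1.73%. The share was thus near that over all genes, in a list that held fewer and weaker islands. Its relation to the depth of the Pax6 KD library was not tested.

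The 17 genes with an island in control only were spread over the functional groups. They were Cdt1, Mcm2, Mcm3, Mcm7, Gins2, Rfc1, Rfc2, Rfc5, Pola2, Pold1, Pold3, Pole, Prim1, Rpa3, Ccne2, E2f3 and Rrm1. Some of these islands were wide and covered most of the window, such as those of Rfc5 (3345 bp) and Rfc2 (3160 bp). At Pola2 2 islands together covered 3001 bp. Others were strong, such as that of Pold1, which had 31 ChIP reads in 1200 bp and 11 reads of the control library. Read numbers at these islands were small, with 52 ChIP reads in 2800 bp at Cdt1, or 18.6 reads per kb with an exact Poisson 95% interval of 13.9 to 24.4, which covers counting error only.

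Islands were called in both conditions at Mcm10, Gins1, Pcna, Prim2, Rpa1, Ccna2, E2f1, E2f2 and Tk1. The fold enrichment at Pcna was 4.12 in control and 2.31 in Pax6 KD, that at E2f1 5.08 and 3.06, and that at Tk1 4.37 and 4.53. Tk1 was the only one of the 9 whose fold was not lower in Pax6 KD. By percentile 5 were lower by 10 points or more (against 36.8% of all genes with both) and 1, Tk1, was higher (28.0%). The largest decrease was at Rpa1, from 89.8 to 36.5, followed by Pcna (67.1 to 36.5), Prim2 (45.2 to 18.4), Ccna2 (38.4 to 17.5) and E2f1 (84.2 to 67.4). E2f2, Tk1 and E2f1 were the 3 highest in Pax6 KD, and Mcm10 (6.98), Ccna2 (17.5) and Prim2 (18.4) the 3 lowest. In control the 3 highest were E2f2, Pold1 (92.4) and Rpa1, and Gins1 (13.3) was the third lowest after Mcm10 and Mcm3.

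Read density was compared within these 9 genes. For each gene the reads per kb of its strongest island in Pax6 KD were divided by those in control, on a log2 scale, and centred on the median of all 3496 genes with both. The median over the 9 genes was 0.20, and it was -0.27 for the fold over the control library. It was below -0.5 at 1 gene (11.1%), against 6.61% of all genes, and above 0.5 at 0, against 8.58%. The gene below was Rpa1, with 25.4 reads per kb in control (19.6 to 32.3) and 13.5 in Pax6 KD (10.5 to 17.3), a relative log2 ratio of -0.54. Those intervals did not overlap, but they are of reads per kb before centring. The median log2 ratio over all genes with both was -0.36 before centring, so the gap between the intervals includes that general shift. The Rpa1 islands of the conditions did not overlap in position either. The strongest islands overlapped at Gins1, Pcna, Prim2, E2f2 and Tk1, where the relative log2 ratio ran from -0.13 to 0.40.

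**Figure D5:**
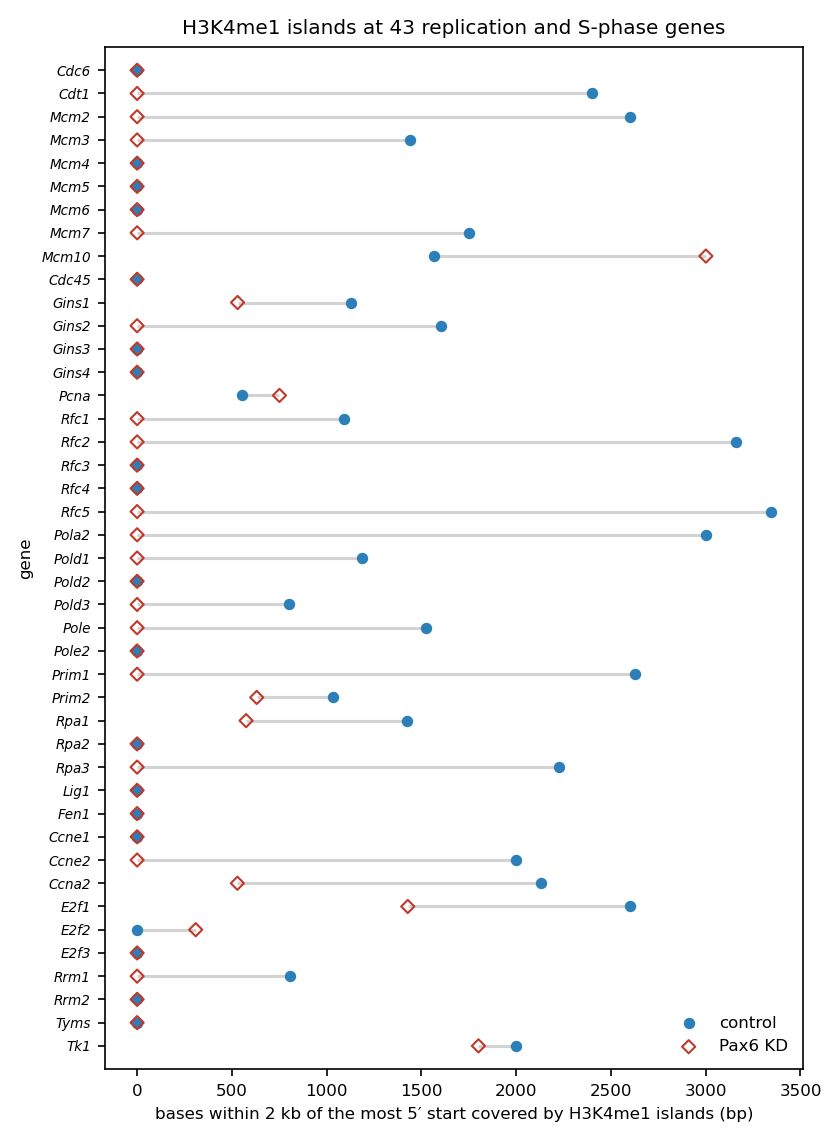
Bases of the 4001 bp around the most 5′ start covered by H3K4me1 islands (bp, horizontal axis) in control (filled circles) and Pax6 KD (open diamonds) for each of the 43 genes. Cover was 0 in Pax6 KD for most genes, and the islands of E2f2 and E2f3 in control lay near another start of the gene.

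The comparison of αTN4 with lens asks how H3K4me2 at these promoters in a dividing line relates to that in the tissue, most of whose cells are fibre cells that have left the cell cycle. All 43 genes had H3K4me2 in lens, where 5.37% of all genes with the mark in control αTN4 had none. The median change in percentile, lens minus control, was -1.62, against -0.07 over all genes with both and -0.96 over active promoters with both. Ranked by width it was 6.56, so its sign depends on the measure. H3K4me2 was lower by 10 points or more in 12 genes (27.9%), against 19.3% of all genes, and higher in 4 (9.30%), against 20.1%. Genes near the top of the control list have little or no room to rise by 10 points. The median percentile in control was 91.1 for the 43 and 88.5 for all genes with both, so these shares are not compared on equal terms. H3K4me2 covered fewer bases around the most 5′ start in 29 genes (67.4%), against 56.2%. In a tissue, fewer cells with the mark and a weaker mark in each cell cannot be told apart.

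The largest decrease was at Rfc5, from 87.5 in control to 58.7 in lens, where the peak at chr5:117837874-117839622 was enriched 8.89-fold. Prim1 went from 88.8 to 69.5 and Rrm1 from 93.2 to 74.6. Rfc5, Pole2 (65.1) and Prim1 were the 3 lowest of the set in lens. Prim1 and Rfc2 were thus lower than in control in both Pax6 KD and lens, comparisons that share the control library. For 5 of the 43 genes, none of them past the 10 points, the strongest peaks of control and lens did not overlap. The 4 genes higher in lens were E2f2, from 83.5 to 99.6, Mcm4, which was 14.4 points above its control value of 80.6, Rfc1, from 81.3 to 94.9, and Rpa2, from 79.7 to 91.1. E2f2, Pole (98.9) and Ccne2 (98.3) were the 3 highest in lens. E2f1, by contrast, was lower in lens, at 78.8 against 89.4.

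Few Pax6 peaks lay near the genes. No Pax6 peak of control αTN4 was found within 2 kb of a start of any of the 43, against 0.255% of all protein-coding genes, and 3 genes (6.98%) had a peak within 50 kb of the gene, against 3.48%. The count was also 3 within 100 kb, against 5.94%. The peak near Rfc2 (chr5:135115427-135115566, 5.50-fold) lay 56.9 kb downstream of the start, that near Pold3 (chr7:107195119-107195376, 7.19-fold) 74.8 kb downstream of the start, and that near Rpa3 (chr6:8257946-8258079, 4.68-fold) 48.8 kb upstream. None lay inside the gene. The site near Rfc2 overlapped H3K4me2 in all 3 libraries and Pol2, and that near Pold3 overlapped H3K4me2 and H3K4me1 in both αTN4 conditions. The site near Rpa3 overlapped H3K4me1 in control only.

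The marks were set beside the E2F words, as a description. Median percentiles of the 13 genes with a word and the 30 without were 58.6 and 72.6 for Pol2, 59.1 and 70.3 for H3K4me3 and 89.4 and 91.2 for H3K4me2 in control. In lens they were 90.9 and 86.8 for H3K4me2. Over all active promoters, the 477 with a word had a median Pol2 percentile of 76.8 and the 9879 without one of 71.4, so the lower Pol2 at genes with a word within the set was not seen over all active promoters.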

How the data were processed

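ChIP-seq reads were aligned to mm9 by the authors with Bowtie. Pol2, Pax6, H3K4me2 and H3K4me3 peaks were called with MACS2 and H3K4me1 islands with SICER, at default settings, with blacklisted regions removed. Peak names hint at pooled replicates for H3K4me2, which the sources used here do not state. The MACS2 lists deposited by the authors give fold enrichment (a ratio), −log10 p and q and a display score for each peak. The SICER lists deposited by the authors give counts of ChIP and control-library reads, the fold ratio, and p-values with FDR. No read totals are given, so depth is unknown for the MACS2 lists.

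Transcription starts (45993) came from GENCODE vM1 on the same build, in place of RefSeq starts. Overlap required 1 bp. Ties in a gene were resolved by taking the region of highest fold. Percentiles were mid-ranks within each list. H3K4me1 read density was divided by island width and centred on the median of all genes. Assignment was tested on simulated data. Sequence was read from the mm9 genome.

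The genes and lists were chosen with earlier results of these data known. Genes are named when they lack a mark that most have, lose or gain one, rank among the 3 highest or lowest of a list, pass the size rule (the 3 largest each way where more than 6 do), or lie within 50 kb of a Pax6 peak. Libraries were grouped by title. Alternatives covered windows (1 and 5 kb), stricter lists (−log10 q of at least 5, FDR of at most 1e-06), ranking by −log10 q, reads or width, overlap of 200 bp and 1 start per gene. Computations used pandas 2.3.3 and NumPy 2.4.6 under Python 3.11.15, with intervals from SciPy 1.17.1 and plots from matplotlib 3.10.9.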

Additional observations from a re-analysis of the deposited data

How the results depend on the processing

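Of 130 values recomputed under the alternatives, 121 stayed within 1.5 times the count or within the 95% interval of the share or median, and 9 did not. Ranking by width in place of fold enrichment gave a median H3K4me2 percentile of 84.6 in control and 87.2 in Pax6 KD, and turned the sign of the median change of H3K4me2 to 2.41 in Pax6 KD and 6.56 in lens, so the small negative medians by fold are no direction. A 1 kb window left H3K4me1 at 4 genes in Pax6 KD, and the most 5′ start alone gave 1 gene that gained H3K4me1. The fold over the control library in place of reads per kb gave a median relative H3K4me1 change of -0.27. No Pax6 peak (0) lay within 2 kb of a start, and a window of 500 bp before to 200 bp after the start held E2F words in 48.8% of the genes, against 5.21% of all. The presence of Pol2, H3K4me3 and H3K4me2 at the genes was within 1.5 times the main count under each alternative. RefSeq promoters, overlapping islands only and the set without shared promoters were chosen after seeing the data. No paired analysis was possible because each condition has 1 library per antibody. The number of libraries, and the unknown depth of the MACS2 libraries, limit every comparison.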

Other observations

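The marks of the 43 genes were set beside those of 48 other replication genes and 28 mitotic genes, lists of the same pathway and of a later phase of the cycle. Pol2, H3K4me3 and H3K4me2 were present at all 48 and all 28 in each library in which they were measured. The mitotic genes had stronger H3K4me3, with a median percentile of 86.6 in control against 72.2 at the other replication genes and 69.8 at the 43. H3K4me2 in control was similar, at 91.1, 89.7 and 91.1. H3K4me1 was called at 25 of the 48 in control and 6 in Pax6 KD, and at 19 of the 28 and 7.

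The gene body was taken to begin 2 kb downstream of the most 5′ start, so peaks near a later start were not left out. Pol2 peaks reached into it at 6 of the 43 genes (14.0%), against 17.8% of active genes. The median body was 13306 bp long in the set and 22980 bp in active genes. The 6 were Mcm7, Pold2, Rfc4, Pola2, E2f2 and Lig1, named after their values were seen. At Lig1 only 22 bp were covered, by the end of its promoter peak. The peaks covered 27.9% of the body of Pold2 and 18.6% of that of Mcm7.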
